A study of Homo sapiens with 8 samples.

Results

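In MRC5, a long-used human fibroblast line from the lung, 10 genes of innate nucleic acid sensing were followed. They are the RNA sensors RIGI (older symbol DDX58), IFIH1, DHX58 and TLR3, the adaptor MAVS, the DNA sensors CGAS and IFI16, the adaptor STING1 (older symbol TMEM173), the kinase TBK1 and the RNA-editing enzyme ADAR. They were taken by symbol from a count table of 60666 Ensembl gene IDs. All 10 were found, and all 10 passed the filter on low counts, which kept 13493 genes.

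Cells carry sensors that recognise nucleic acid in the wrong form or the wrong place. RIGI and IFIH1 bind duplex RNA in the cytosol and signal through MAVS, while CGAS binds cytosolic DNA and makes a cyclic dinucleotide that activates STING1. Both routes converge on TBK1, which activates the transcription factor IRF3, and the type I interferon made as a result raises the transcription of many of the sensors themselves.

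The comparison was over 4 groups of 2 libraries each. They were cells with a short hairpin against MTHFD2 (shMTHFD2) treated with TGF-β1, cells with a control hairpin (shMock) treated with TGF-β1, shMTHFD2 cells without the cytokine, and shMock cells without it. TGF-β1 was given as 4 ng, with no volume stated, for 24 h. MTHFD2 encodes a mitochondrial enzyme of folate metabolism, and TGF-β1 drives fibroblasts towards contractile myofibroblasts. The stated aim was to find how MTHFD2 knockdown alters transcription under fibrotic activation. All groups share the transduction with a hairpin, and the knockdown rests on 1 hairpin line with no rescue among the samples, so an effect of MTHFD2 loss cannot be told apart from other differences between the lines. On the control samples the protocol text also describes the cytokine, the genotype field of 3 shMTHFD2 samples names other members of a numbered MTHFD series, and the extraction text speaks of other cells and another hairpin. The titles were used for the groups. The labels do not describe the replicates as separate cultures, so that p-values measure no more than how far these libraries lay apart, and that distance may be technical.

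The libraries held 18162738 to 22221927 counts, at which 3 counts stand at 0.135 to 0.165 CPM (counts scaled to a common library size). MTHFD2 stood at 93.8 and 91.9 CPM in shMTHFD2 with TGF-β1, against 256.0 and 257.7 CPM in shMock with TGF-β1. Without the cytokine it stood at 14.9 and 18.7 CPM in shMTHFD2, against 58.8 and 57.1 CPM in shMock. The hairpin line was thus lower in MTHFD2 in both conditions, as its label says. Summed over 9 fibroblast markers, the libraries held 30579 to 54250 CPM. Of 9 immune markers 1, CD68, passed the filter, AIF1 and CD3E had no counts in any of the 8 libraries, and PTPRC had at most 2. All 6 epithelial markers were under the filter. Of 4 endothelial markers 2, VWF and KDR, passed the filter, while PECAM1 and CDH5 had no counts in any library. The 4 summed to 3.27 to 14.2 CPM over the libraries. In bulk RNA, fewer cells of a type and less RNA per cell cannot be told apart.

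Promoter sequence was read for the members because several of them are known interferon-inducible genes. The interferon-stimulated response element is built on GAAA repeats, and windows from 250 bases before to 50 after each gene's start (RefSeq, GRCh38.p14) were searched on both strands for GAAA, NN, GAAA in a row, where N is any base, and for the closer spacing GAAANGAAA. The interferon-gamma-activated site was searched as TTCNNNGAA, which reads the same on both strands. The table held a window for 7 of the 10 members, all but DHX58, CGAS and STING1. Of all 35116 windows, 3.57% held the spacing of 2, 3.12% held GAAANGAAA, 6.4% held either, and 7.66% held TTCNNNGAA. Some genes have more than 1 window, and counted over 27305 genes these shares were 4.38%, 3.87%, 7.83% and 9.38%. The members with a GAAA repeat were RIGI, IFIH1, TLR3 and IFI16. They are printed 5′ to 3′ along the gene's own strand up to the RefSeq start (for TLR3, up to the end of the match), with the matched repeats in capitals. A stretch appearing as TTTC is the same repeat read on the other strand. TBK1, which held none, is shown beside them. RIGI lies at chr9:32526197-32526446 (minus strand), IFIH1 at chr2:162318685-162318934 (minus), TLR3 at chr4:186068906-186069161 (plus), IFI16 at chr1:159009657-159009906 (plus) and TBK1 at chr12:64451870-64452119 (plus).
RIGI: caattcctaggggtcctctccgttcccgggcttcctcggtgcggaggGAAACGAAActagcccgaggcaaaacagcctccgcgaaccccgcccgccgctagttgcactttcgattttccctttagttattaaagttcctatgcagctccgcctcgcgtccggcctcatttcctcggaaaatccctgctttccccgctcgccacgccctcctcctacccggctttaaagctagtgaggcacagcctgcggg
IFIH1: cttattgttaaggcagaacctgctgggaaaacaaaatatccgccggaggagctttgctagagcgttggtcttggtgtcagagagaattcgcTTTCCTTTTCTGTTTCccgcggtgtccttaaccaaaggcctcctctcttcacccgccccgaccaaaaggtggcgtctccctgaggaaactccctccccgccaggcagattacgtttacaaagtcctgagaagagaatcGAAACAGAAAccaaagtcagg
TLR3: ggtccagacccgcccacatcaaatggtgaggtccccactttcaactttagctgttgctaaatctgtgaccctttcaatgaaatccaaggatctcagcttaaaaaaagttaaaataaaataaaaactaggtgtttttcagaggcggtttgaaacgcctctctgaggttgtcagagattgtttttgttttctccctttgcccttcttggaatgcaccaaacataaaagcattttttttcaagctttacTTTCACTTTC
IFI16: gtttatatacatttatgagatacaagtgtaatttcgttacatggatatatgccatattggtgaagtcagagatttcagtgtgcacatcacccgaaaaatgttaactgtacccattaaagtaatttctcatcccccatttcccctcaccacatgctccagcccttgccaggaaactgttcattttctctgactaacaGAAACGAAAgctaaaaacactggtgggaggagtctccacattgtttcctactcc
TBK1: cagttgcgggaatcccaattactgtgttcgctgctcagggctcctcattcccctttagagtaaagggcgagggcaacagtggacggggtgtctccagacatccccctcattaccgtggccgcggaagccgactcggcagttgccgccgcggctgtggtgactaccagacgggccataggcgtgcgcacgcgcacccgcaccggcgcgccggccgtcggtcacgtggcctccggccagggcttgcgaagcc

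In RIGI the match GAAACGAAA ran from base -203 to -195, counted here and below from the RefSeq start of the window. IFIH1 held the repeat with 2 bases between 3 times, of which 2 overlapped between -159 and -144 on the other strand, and the last ran from -21 to -12. In TLR3 the match spanned the start, from -4 to 6. Among these 7 members only TLR3 held TTCNNNGAA, from -178 to -170 and from -50 to -42, shown in lower case, and neither overlapped the repeat. IFI16 had 2 windows, and the match lay in the window shown, from -54 to -46, while its other window held none. MAVS, TBK1 and the 3 windows of ADAR held neither spacing. A match describes these letters only, and a window without one says nothing of whether a factor acts there.

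The main comparison of the series set shMTHFD2 against shMock with TGF-β1 present. The cytosolic RNA sensors RIGI and IFIH1 stood at 55.3% and 52.8% of their shMock level, the DNA adaptor STING1 at 70.9%, and IFI16 and ADAR at 81.0% and 82.9%. These 5 members fell in edgeR's quasi-likelihood test at an adjusted p under 0.05, none rose and 5 did not pass. Over all genes tested, the same test called 13.1%, with 8.23% lower and 4.83% higher. The median log2 fold change was -0.29 over the 10 members and 0.01 over all tested genes. Without TGF-β1, RIGI, IFIH1, TLR3 and STING1 fell, none rose and 6 did not pass, where the test called 11.4% of all genes, 8.19% lower and 3.25% higher. The median was then -0.39 over the members and -0.01 over all genes. Of the members called, TLR3 had passed the filter on low counts only through the shMock groups. The knockdown comparisons with and without TGF-β1 share no library, but they set the same hairpin lines against each other and share 1 estimate of spread. In both, 3 members were called, RIGI, IFIH1 and STING1. They are 60.0% of the members called with TGF-β1 and 75.0% of those called without it. The share of all genes called in both was not computed, so these percentages have no background. Library totals in place of TMM factors put the median of all genes at 0.10 with TGF-β1. The calls over all genes with the cytokine were then 717 lower and 1338 higher, against 1110 lower and 652 higher with TMM factors. Without it they were 740 lower and 755 higher, against 1105 lower and 438 higher. The library-totals scaling left 3 members called with TGF-β1, RIGI, IFIH1 and STING1, and the same 4 without it. The same 3 were called with TGF-β1 when 1 library was left out, be it treated shMTHFD2 library 1, treated shMock library 1 or treated shMock library 2.

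**Figure D1:**
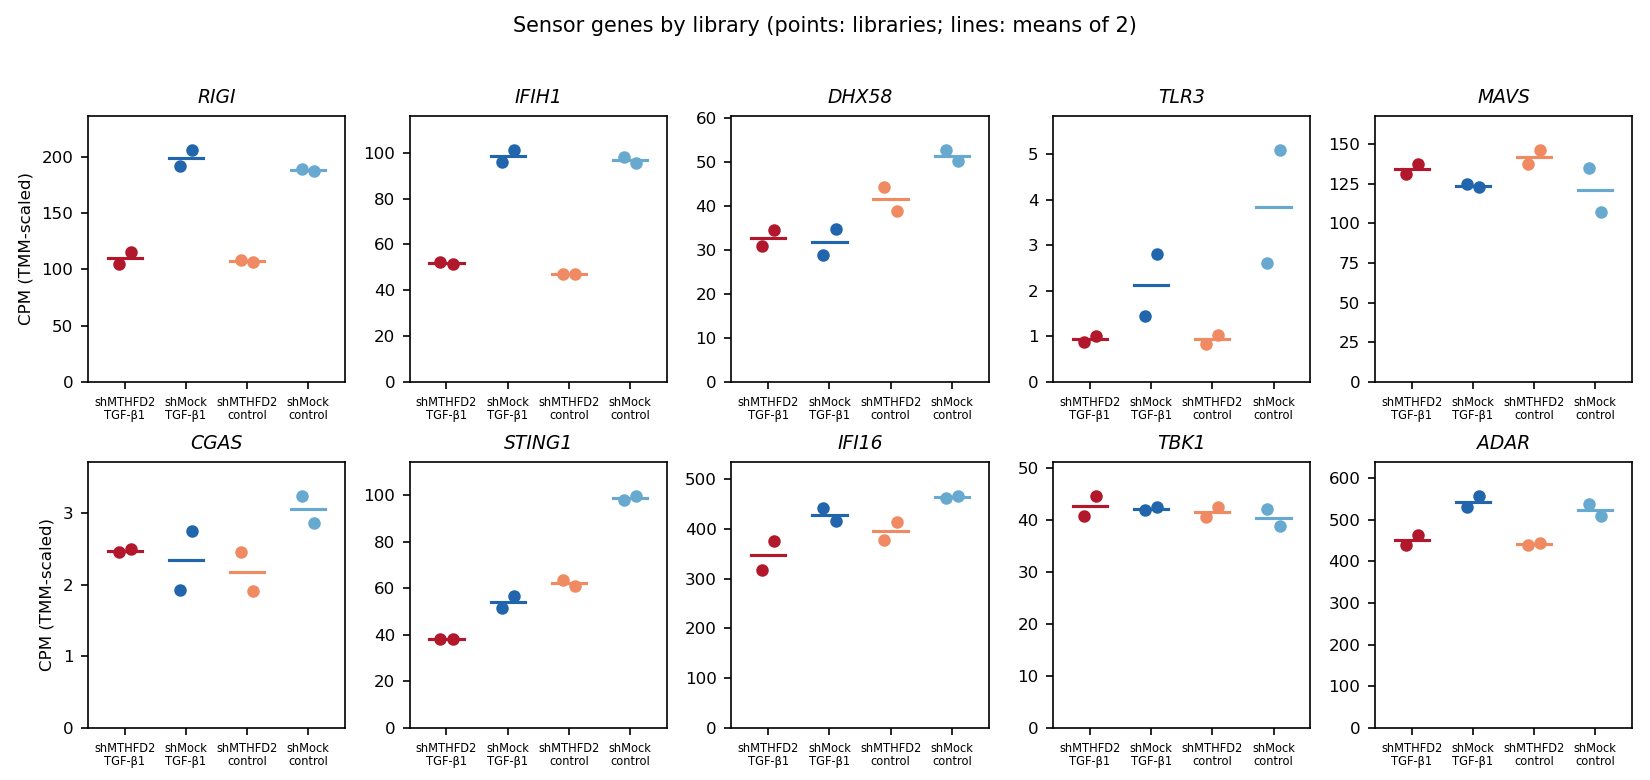
TMM-scaled CPM of each of the 10 genes by library, with a linear axis that starts at 0 in every panel. Points are libraries, lines are means of 2, and groups run from shMTHFD2 TGF-β1 and shMock TGF-β1 to shMTHFD2 control and shMock control. RIGI and IFIH1 lie lower in both shMTHFD2 groups than in either shMock group, STING1 falls with the hairpin and with TGF-β1, and the TBK1 libraries of all groups overlap or lie close.

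RIGI (ENSG00000107201; chr9:32455705-32526324, minus strand, GENCODE release 29 on GRCh38) encodes RIG-I, a helicase that detects the ends of viral RNA. It had 104.7 and 115.1 CPM in shMTHFD2 with TGF-β1, against 191.8 and 205.7 CPM in shMock with TGF-β1. In the absence of TGF-β1 it had 108.4 and 106.3 CPM in shMTHFD2, against 189.3 and 187.4 CPM in shMock. All 4 shMTHFD2 libraries were below all 4 shMock libraries, with a wide gap and little spread between replicates. The log2 fold change was -0.86 with TGF-β1 (SE 0.08, edgeR adjusted p = 1.36e-05) and -0.81 without it (SE 0.08, edgeR adjusted p = 1.57e-05).

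IFIH1 (ENSG00000115267; chr2:162267079-162318703, minus) encodes MDA5, the related helicase that detects long duplex RNA. Its levels were 52.5 and 51.5 CPM in shMTHFD2 with TGF-β1, against 96.0 and 101.0 CPM in shMock with TGF-β1. In the untreated lines they were 47.1 and 47.3 CPM in shMTHFD2, against 98.0 and 95.5 CPM in shMock. The lines again did not overlap in either condition, and replicates were close. With TGF-β1 the level was 1.89-fold lower in shMTHFD2 (-0.92 on the log2 scale, SE 0.08, edgeR adjusted p = 6.78e-06). Without TGF-β1 it was 2.05-fold lower (-1.03, SE 0.08, edgeR adjusted p = 3.29e-06). RIGI and IFIH1 remained called in both comparisons under each of the 17 alternative settings run, including every fit without 1 library.

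DHX58 (ENSG00000108771; chr17:42101404-42112733, minus) encodes LGP2, a helicase of the same family that lacks the signalling domain and tunes the others. With TGF-β1 it had 31.0 and 34.6 CPM in shMTHFD2, against 28.9 and 34.8 CPM in shMock, and the libraries overlapped. Without it, shMTHFD2 had 44.2 and 38.9 CPM, against 52.6 and 50.1 CPM in shMock, which did not overlap. Neither difference passed. The log2 fold change was 0.04 with TGF-β1 (SE 0.11, 95% interval -0.20 to 0.29, edgeR adjusted p = 0.846) and -0.31 without it (SE 0.11, edgeR adjusted p = 0.0871). With GC and length offsets the value with TGF-β1 was -0.08, and without 1 library it ran from -0.08 to 0.19.

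TLR3 (ENSG00000164342; chr4:186069152-186088069, plus) encodes the endosomal receptor of duplex RNA, and its counts were low. It had 17 and 20 counts in shMTHFD2 with TGF-β1 (0.868 and 1.02 CPM), against 27 and 49 counts in shMock with TGF-β1 (1.44 and 2.81 CPM). In untreated cells it had 18 and 20 counts in shMTHFD2 (0.834 and 1.03 CPM), against 58 and 103 counts in shMock (2.61 and 5.08 CPM). The shMTHFD2 libraries were lower in both conditions without overlap, but the shMock replicates lay far apart. The shMTHFD2 means, 0.942 CPM with TGF-β1 and 0.933 CPM without it, were under the filter's 1 CPM. The gene passed the filter only through shMock, at 2.13 and 3.84 CPM, so its being tested already depended on the higher shMock level. The log2 fold change was -2.03 without TGF-β1 (SE 0.46, edgeR adjusted p = 0.00966) and -1.16 with it (SE 0.47, edgeR adjusted p = 0.125), so the call was made in the untreated cells only. That call was lost without untreated shMock library 2 (-1.48, edgeR adjusted p = 0.139), without untreated shMTHFD2 library 1 (edgeR adjusted p = 0.0681) and without untreated shMTHFD2 library 2 (edgeR adjusted p = 0.0606).

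MAVS (ENSG00000088888; chr20:3846799-3876123, plus) encodes the mitochondrial adaptor to which RIG-I and MDA5 dock. It had 130.8 and 137.1 CPM in shMTHFD2 with TGF-β1, against 124.7 and 122.9 CPM in shMock with TGF-β1. Untreated, it had 137.2 and 145.9 CPM in shMTHFD2, against 134.9 and 107.2 CPM in shMock. The adaptor was thus slightly higher in each shMTHFD2 group, the opposite side from its sensors, with untreated shMock library 2 far below its replicate. The difference did not pass with TGF-β1 (0.11, SE 0.10, edgeR adjusted p = 0.5) or without it (0.22, SE 0.10, edgeR adjusted p = 0.162). Without untreated shMock library 1 the value in untreated cells was 0.40 and was called (edgeR adjusted p = 0.0295).

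**Figure D2:**
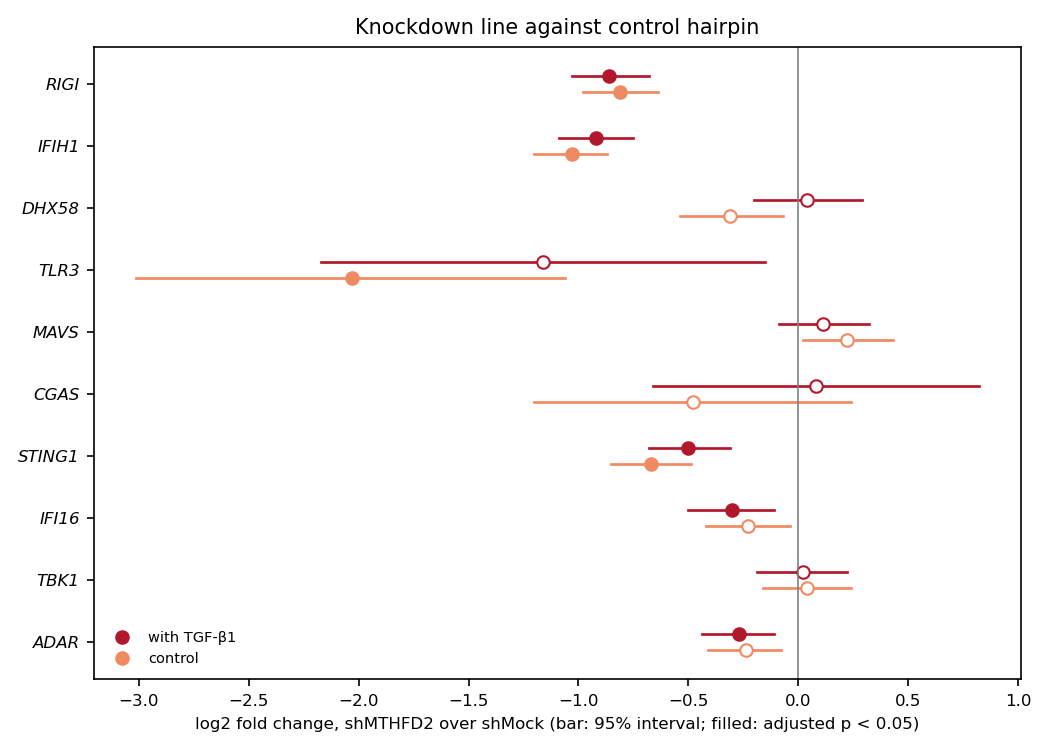
Log2 fold change of shMTHFD2 over shMock for each gene, with TGF-β1 above and without it below, from edgeR. Bars are 95% intervals and filled points have an adjusted p under 0.05. RIGI, IFIH1 and STING1 are filled in both conditions, while the intervals of TBK1 lie within -0.19 and 0.24.

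CGAS (ENSG00000164430; chr6:73413515-73452276, minus) encodes the enzyme that turns cytosolic DNA into the messenger cGAMP. Its RNA was scarce. It had 2.45 and 2.49 CPM in shMTHFD2 with TGF-β1, against 1.92 and 2.75 CPM in shMock with TGF-β1. Without the cytokine it had 2.45 and 1.91 CPM in shMTHFD2, against 3.23 and 2.86 CPM in shMock. The libraries overlapped with TGF-β1 and not without it. A difference was not detectable at this depth, at 0.08 with TGF-β1 (95% interval -0.66 to 0.82, edgeR adjusted p = 0.908) and -0.48 without it (95% interval -1.20 to 0.24, edgeR adjusted p = 0.423). In the fits without 1 library the value with TGF-β1 ran from -0.15 to 0.37. Its exons overlap those of DDX43 on the opposite strand, and the sources used here do not say whether counting used strand.

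STING1 (ENSG00000184584; chr5:139475534-139482935, minus) encodes the adaptor in the endoplasmic reticulum that binds cGAMP. It had 38.3 and 38.4 CPM in shMTHFD2 with TGF-β1, against 51.4 and 56.8 CPM in shMock with TGF-β1. In the absence of TGF-β1 it had 63.5 and 60.9 CPM in shMTHFD2, against 98.2 and 99.6 CPM in shMock. The 4 groups stood apart from one another without any overlap, lowest where hairpin and cytokine were combined. The knockdown difference was -0.50 with TGF-β1 (SE 0.09, edgeR adjusted p = 0.00167) and -0.67 without it (SE 0.08, edgeR adjusted p = 9.94e-05), and it was called under all 17 alternatives in both conditions. The summed level of the 9 immune markers, of which only CD68 passed the filter, followed the same order of groups. It was 47.6 and 51.2 CPM in shMTHFD2 with TGF-β1, 53.8 and 58.9 CPM in shMock with TGF-β1, 75.1 and 76.6 CPM in shMTHFD2 control and 101.6 and 106.5 CPM in shMock control. CD14 had at most 21 counts in any library and the other immune markers under the filter had fewer, so the sum is close to CD68 alone. The part of that movement in the STING1 result was not tested, and the leukocyte marker PTPRC stood at 0 counts in 7 of the 8 libraries.

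IFI16 (ENSG00000163565; chr1:158999968-159055155, plus) encodes a DNA-binding protein that works with cGAS and STING. It had 318.1 and 376.4 CPM in shMTHFD2 with TGF-β1, against 441.4 and 416.0 CPM in shMock with TGF-β1. In untreated cells it had 376.5 and 414.6 CPM in shMTHFD2, against 461.8 and 465.2 CPM in shMock. Both shMTHFD2 groups lay below their shMock groups without overlap, by less than RIGI or IFIH1 did. The fall passed with TGF-β1 (-0.30, SE 0.09, edgeR adjusted p = 0.0397) and the value without it did not pass (-0.23, SE 0.09, edgeR adjusted p = 0.124), except with GC and length offsets (-0.26, edgeR adjusted p = 0.0301). The call with TGF-β1 was narrow. It was lost without treated shMTHFD2 library 1 (edgeR adjusted p = 0.343), treated shMock library 1 (0.185), treated shMock library 2 (0.0525), untreated shMock library 1 (0.0528) or untreated shMock library 2 (0.053), and with library totals alone (0.114) or GC and length offsets (0.115).

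TBK1 (ENSG00000183735; chr12:64451880-64502108, plus) encodes the kinase that both routes use. It had 40.7 and 44.5 CPM in shMTHFD2 with TGF-β1, against 41.9 and 42.4 CPM in shMock with TGF-β1. Untreated, it had 40.6 and 42.5 CPM in shMTHFD2, against 42.0 and 38.8 CPM in shMock. The groups overlapped in both conditions, and all 8 libraries lay close together. The difference was 0.02 with TGF-β1 (95% interval -0.19 to 0.22, edgeR adjusted p = 0.94) and 0.04 without it (95% interval -0.16 to 0.24, edgeR adjusted p = 0.852). Leaving out 1 library moved these values between -0.05 and 0.07, and between -0.02 and 0.10. An antisense gene overlaps TBK1 exons on the opposite strand.

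ADAR (ENSG00000160710; chr1:154582057-154628013, minus) encodes the enzyme that edits adenosine to inosine in duplex RNA and so keeps cellular RNA from being sensed by MDA5. It had 437.8 and 461.9 CPM in shMTHFD2 with TGF-β1, against 530.0 and 555.7 CPM in shMock with TGF-β1. Without the cytokine it had 439.5 and 444.8 CPM in shMTHFD2, against 538.2 and 507.7 CPM in shMock. Every shMTHFD2 library was below every shMock library. The fall passed with TGF-β1 (-0.27, SE 0.08, edgeR adjusted p = 0.0326), and the value without it was close to the threshold (-0.24, SE 0.08, edgeR adjusted p = 0.0571). The call with TGF-β1 was lost without treated shMTHFD2 library 1 (edgeR adjusted p = 0.215), treated shMTHFD2 library 2 (0.0914), treated shMock library 1 (0.059) or treated shMock library 2 (0.105), and with library totals alone (0.113). Without TGF-β1 the gene was called by DESeq2 (adjusted p = 0.0142), with GC and length offsets (edgeR adjusted p = 0.0104), and in fits lacking treated shMock library 1 (0.0451) or 2 (0.0449). Counts per gene do not separate the interferon-inducible isoform of ADAR from the constitutive one.

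The TGF-β1 response was read within each line, on the libraries that also entered the knockdown comparisons. DHX58 and STING1 fell with TGF-β1 in both lines, and the other 8 members had no call in either. In shMTHFD2 the test called 23.8% of all genes, 11% lower and 12.8% higher, and 2 of the 10 members, both lower. In shMock it called 35.4% of all genes, 18.1% lower and 17.3% higher, and again 2 of the 10 members, both lower. Counted in either direction, these shares of members lie near or under the background. Counted as lower only, 2 of 10 lies above the 11% in shMTHFD2 and near the 18.1% in shMock. The members' median was 0.02 in shMTHFD2 and -0.04 in shMock, beside -0.01 and -0.02 over all genes. Scaled on library totals alone, the median of all genes moved to -0.12 in shMTHFD2 and -0.16 in shMock. The split of calls was then 2455 lower and 1222 higher in shMTHFD2, against 1489 and 1725 with TMM factors, and 3932 lower and 1570 higher in shMock, against 2443 and 2333. Upper-quartile factors gave 1954 lower and 1417 higher in shMTHFD2, and 2970 lower and 1960 higher in shMock.

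DHX58 was 1.27-fold lower with TGF-β1 in shMTHFD2 (-0.34, SE 0.11, edgeR adjusted p = 0.0383) and 1.62-fold lower in shMock (-0.69, SE 0.11, edgeR adjusted p = 0.00019). In both lines the treated libraries lay below the untreated ones. The call in shMock held in all 17 alternatives. In shMTHFD2 it was lost without treated shMTHFD2 library 1 (edgeR adjusted p = 0.202), treated shMTHFD2 library 2 (0.0501), untreated shMTHFD2 library 1 (0.211), untreated shMock library 1 (0.053) or untreated shMock library 2 (0.051). STING1 was 1.62-fold lower in shMTHFD2 (-0.70, SE 0.09, edgeR adjusted p = 1.65e-05) and 1.83-fold lower in shMock (-0.87, SE 0.08, edgeR adjusted p = 9.33e-07), and both calls held in all 17 alternatives. Along with these genes moved the summed level of 4 endothelial markers, of which KDR was the highest. That sum was 3.61 and 4.80 CPM with TGF-β1 against 12.0 and 12.1 CPM without it in shMTHFD2, and 3.27 and 4.32 CPM against 13.0 and 14.2 CPM in shMock. PECAM1 and CDH5 were at 0 throughout. Of the 2 tested markers, VWF and KDR, in each line 1 was called lower with TGF-β1 and 1 was not called. The part of the movement of this sum in the result was not tested.

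None of the other members was called with TGF-β1. In shMTHFD2 RIGI was at 0.03 (95% interval -0.14 to 0.20) and IFIH1 at 0.14 (-0.03 to 0.31), and in shMock they were at 0.08 (-0.09 to 0.24) and 0.02 (-0.14 to 0.19). The intervals of both genes thus reach no further than 0.31, while MTHFD2 itself was 5.54-fold higher with TGF-β1 in shMTHFD2 and 4.43-fold higher in shMock. TLR3 was at 0.02 in shMTHFD2 and -0.85 in shMock (edgeR adjusted p = 0.985 and 0.136), and its interval in shMock ran from -1.77 to 0.06. CGAS was at 0.18 in shMTHFD2 and -0.39 in shMock, with intervals wide enough to hold a change of either sign. IFI16 was at -0.19 in shMTHFD2 (edgeR adjusted p = 0.161) and -0.11 in shMock (0.361). It was called in both lines with library totals alone, at -0.30 in shMTHFD2 and -0.25 in shMock, and in shMock with GC and length offsets, at -0.23. MAVS, TBK1 and ADAR ran from -0.08 to 0.06. With library totals alone RIGI, TBK1 and ADAR turned negative in both lines, IFIH1 and MAVS did so in shMock and TLR3 in shMTHFD2, and none of these values was called.

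**Figure D3:**
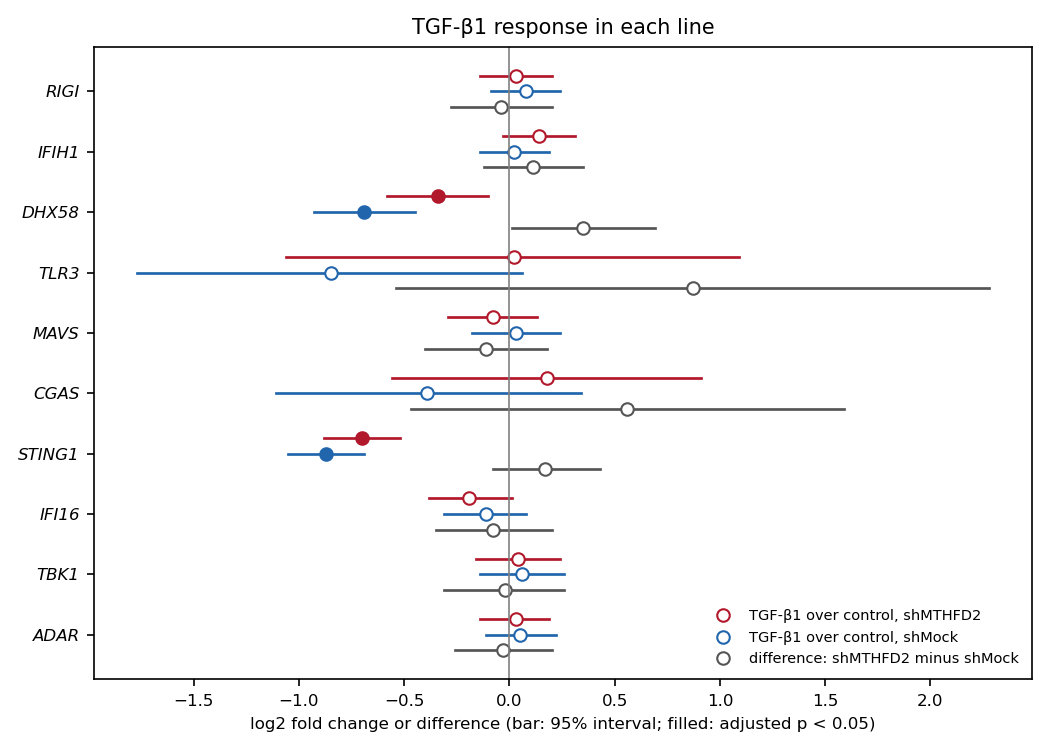
Log2 fold change with TGF-β1 over control in shMTHFD2 and in shMock, and the difference between these responses, for each gene. Bars are 95% intervals and filled points have an edgeR adjusted p under 0.05. DHX58 and STING1 are filled in both lines, and no difference is filled.

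The interaction asks whether the lines responded differently to TGF-β1, as the response in shMTHFD2 minus that in shMock. The edgeR test called 0 of the 10 members and 0.0889% of all genes, and DESeq2 also called 0 members. At an unadjusted p under 0.05 there was 1 member, DHX58, where 12.7% of all genes passed that mark. DHX58 had a difference of 0.35 (95% interval 0.01 to 0.69, edgeR adjusted p = 0.382), on the side of a smaller decrease in shMTHFD2. STING1 had 0.17 (-0.08 to 0.43, edgeR adjusted p = 0.557), RIGI -0.04 (-0.28 to 0.20) and IFIH1 0.11 (-0.12 to 0.35). TLR3 and CGAS had the widest intervals, -0.54 to 2.28 and -0.47 to 1.59. A p that misses the threshold does not show that the lines responded alike, and it also means that the TLR3, IFI16 and ADAR calls made in 1 condition only were not shown to be particular to it.

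Levels between genes were compared as CPM per kb of exon. IFI16 was the highest member in every group, at 118 in shMTHFD2 TGF-β1, 146 in shMock TGF-β1, 135 in shMTHFD2 control and 158 in shMock control, and ADAR was next at 61.2, 73.9, 60.2 and 71.2. CGAS and TLR3 were lowest in every group, CGAS between 0.592 and 0.826 and TLR3 between 0.150 and 0.617. In shMock control STING1 came next at 55.9, followed by RIGI at 43.3, IFIH1 at 23.0, DHX58 at 19.6, TBK1 at 12.4 and MAVS at 10.3. With TGF-β1 RIGI stood above STING1 in both lines, at 25.2 against 21.6 in shMTHFD2 and at 45.7 against 30.5 in shMock. In shMTHFD2 TGF-β1 IFIH1 at 12.4 lay close to DHX58 at 12.5 and TBK1 at 13.1. The neighbours whose libraries overlapped in this order were TBK1 with DHX58 and DHX58 with IFIH1 in shMTHFD2 TGF-β1, TBK1 with DHX58 in shMock TGF-β1, and CGAS with TLR3 in shMock control.

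**Figure D4:**
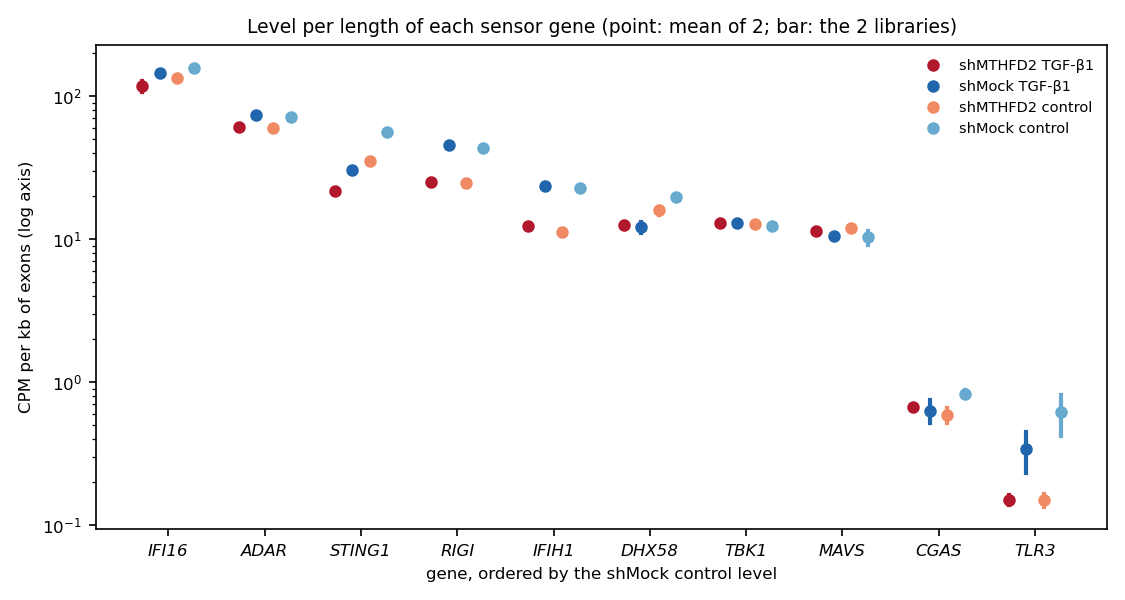
CPM per kb of exon for each gene on a log axis, ordered by the shMock control level, in the 4 groups. Points are means of 2 libraries and bars span those libraries. IFI16 and ADAR lead in every group, while CGAS and TLR3 lie below 1 CPM per kb in every group.

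The members differed in pattern across the 8 libraries, which share hairpins and treatments, so the correlations of log2 CPM are a description. RIGI and IFIH1 had a Pearson r of 0.991, RIGI and ADAR 0.979, and IFIH1 and ADAR 0.965. DHX58 followed STING1 (0.876) rather than its fellow helicases RIGI (0.185) and IFIH1 (0.174). MAVS ran against TLR3 (-0.793), IFIH1 (-0.688) and RIGI (-0.664). Among all tested genes the patterns most like RIGI were those of TTPAL (0.996), LONRF1 (0.994), IFIH1 (0.991), CTNNB1 (0.991) and AZI2 (0.990). For CGAS, itself a gene of low counts, the 5 most alike included GAS2L1 (0.934), ADPRS (0.928) and SLC4A2 (0.927).

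Other genes of the pathway were read from 6 lists, in the same fits. The list of other sensors and RNA-binding effectors held the most calls by number, where 8.23% of all genes fell with TGF-β1 and 8.19% without it. With TGF-β1, 10 of its 15 tested genes fell in shMTHFD2 and 1 rose, with a median of -0.56, and without TGF-β1 8 fell, with a median of -0.29. OAS1, which makes the oligoadenylate that activates RNase L, averaged 42.0 ± 2.57 CPM in shMTHFD2 with TGF-β1 and 88.9 ± 15.7 CPM in shMock (SD, n = 2 each, -1.08, edgeR adjusted p = 8.72e-05). In the absence of TGF-β1 it had 39.5 and 51.2 CPM in shMTHFD2, against 109.3 and 105.8 CPM in shMock (-1.25, edgeR adjusted p = 1.86e-05). OASL, a relative that binds RIG-I, was lower with TGF-β1 (-1.39, edgeR adjusted p = 0.0108) and without it (-1.66, edgeR adjusted p = 0.00251). With TGF-β1 its call was lost without treated shMTHFD2 library 1 (0.0876) or treated shMock library 2 (0.071). The gene that rose was ZCCHC3, an RNA-binding co-factor of RIG-I and MDA5 (0.44, edgeR adjusted p = 0.0113), and it lost its call without treated shMTHFD2 library 1 (0.0855) or treated shMock library 1 (0.11). AIM2, TLR7 and TLR8 had no counts in any library, and ZBP1 and TLR9 had at most 5.

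**Figure D5:**
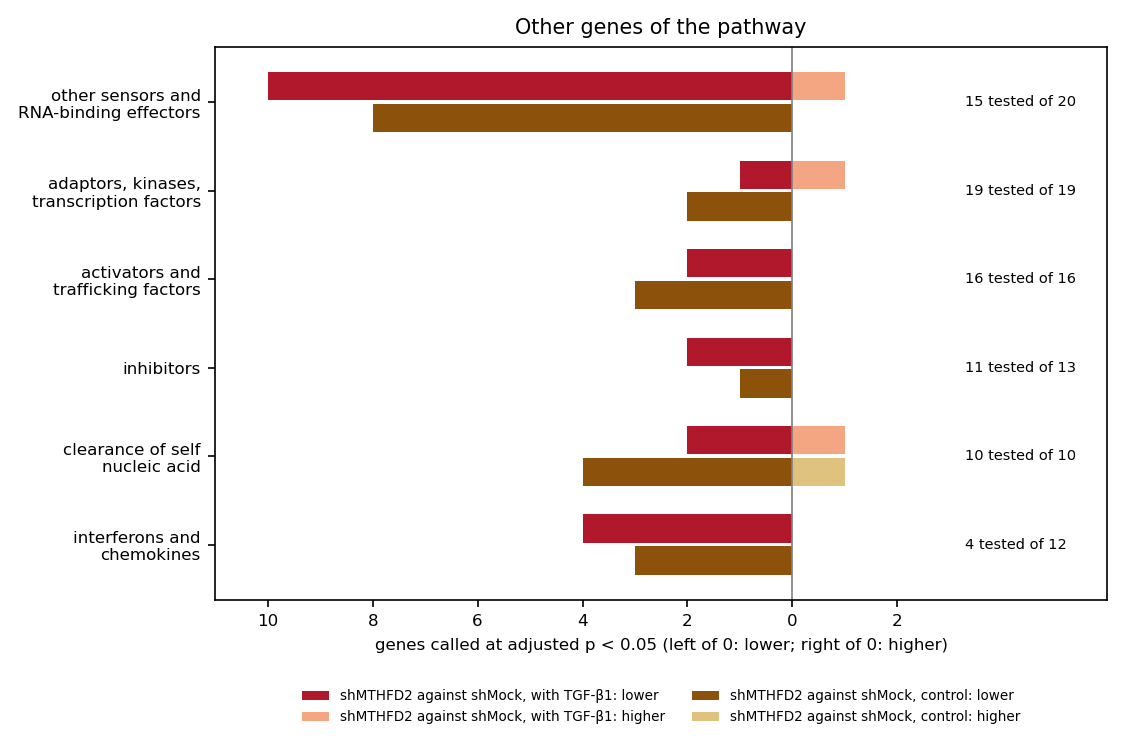
Number of genes called lower (left of 0) and higher (right of 0) in shMTHFD2 against shMock, with TGF-β1 and without it, in 6 lists of the pathway. The text at the right gives how many genes of each list were tested. Other sensors hold the most calls, 10 lower with TGF-β1 and 8 lower without it.

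The signalling layers below the sensors were read against the 13.1% of all genes called with TGF-β1 and the 11.4% called without it. Of 19 adaptors, kinases and transcription factors, 1 fell and 1 rose with TGF-β1 (median -0.01), and 2 fell without it (median -0.18), which is near those shares. AZI2, an adaptor of TBK1, was lower in both conditions, at 48.7 and 48.7 CPM in shMTHFD2 with TGF-β1 against 69.5 and 68.1 CPM in shMock (-0.50, edgeR adjusted p = 0.000929). Without TGF-β1 it was at -0.48 (edgeR adjusted p = 0.00115). IRF7, the interferon-inducible transcription factor, fell without TGF-β1, at 54.9 and 40.4 CPM in shMTHFD2 against 85.2 and 85.7 CPM in shMock (-0.84, edgeR adjusted p = 0.00144). IRF3 was called higher with TGF-β1 (0.31, edgeR adjusted p = 0.0399), on the edge of the threshold. Without treated shMTHFD2 library 1 its edgeR adjusted p was 0.34, leaving out treated shMock library 1 gave 0.239, and leaving out any 1 of the 4 control libraries gave 0.0506 to 0.0549. The count with TGF-β1 was 1 without treated shMTHFD2 library 1, untreated shMock library 1 or untreated shMock library 2, and that without it was 4 without untreated shMTHFD2 library 1. With no filter 4 were called with TGF-β1, 2 of them lower.

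Against 8.23% of all genes lower with TGF-β1 and 8.19% lower without it, 2 of 16 activators and trafficking factors fell with TGF-β1 (median -0.12) and 3 fell without it (median -0.03). TRIM25, the ubiquitin ligase that activates RIG-I, had 118.9 and 120.9 CPM in shMTHFD2 with TGF-β1, against 169.3 and 177.2 CPM in shMock (-0.53, edgeR adjusted p = 0.000331). Without TGF-β1 it had 142.3 and 144.2 CPM in shMTHFD2, against 230.1 and 233.1 CPM in shMock (-0.69, edgeR adjusted p = 2.91e-05). YIPF5, which helps STING leave the endoplasmic reticulum, was lower as well, at -0.64 with TGF-β1 (edgeR adjusted p = 0.000132) and -0.63 without it (edgeR adjusted p = 0.000153). Of 11 tested inhibitors, 2 fell with TGF-β1 (median -0.12) and 1 without it (median -0.03). TAX1BP1 (-0.42, edgeR adjusted p = 0.00296) and the ubiquitin ligase ITCH (-0.35, edgeR adjusted p = 0.0157) were those called with TGF-β1. TNFAIP3, which encodes the brake A20, was called without it (-0.75, edgeR adjusted p = 0.0168). ITCH lost its call without treated shMTHFD2 library 1 (0.11), treated shMock library 1 (0.0538) or treated shMock library 2 (0.0644), and with library totals alone (0.0523). TNFAIP3 lost its call without untreated shMTHFD2 library 1 (0.0556), untreated shMTHFD2 library 2 (0.135) or untreated shMock library 2 (0.186). The inhibitor count with TGF-β1 was 1 without treated shMTHFD2 library 1 or treated shMock library 2. That without TGF-β1 was 0 without untreated shMTHFD2 library 1, untreated shMTHFD2 library 2 or untreated shMock library 2, and 2 without either shMock TGF-β1 library.

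Of 10 genes that clear or restrain cellular nucleic acid, 2 fell and 1 rose with TGF-β1 (median -0.02), and 4 fell and 1 rose without it (median -0.36), where 13.1% and 11.4% of all genes were called. SAMHD1, which breaks down deoxynucleotides, had 86.9 and 83.8 CPM in shMTHFD2 with TGF-β1, against 147.8 and 151.4 CPM in shMock (-0.81, edgeR adjusted p = 2.34e-05). Without TGF-β1 it had 73.1 and 81.7 CPM in shMTHFD2, against 149.7 and 148.2 CPM in shMock (-0.94, edgeR adjusted p = 6.04e-06). PNPT1, the exoribonuclease of mitochondrial RNA, was lower too, at -0.68 with TGF-β1 (edgeR adjusted p = 0.000206) and -0.86 without it (edgeR adjusted p = 2.16e-05). RNASEH2C, a subunit of ribonuclease H2, was called higher with TGF-β1 (0.46, edgeR adjusted p = 0.0385) and without it (0.46, edgeR adjusted p = 0.0349). With TGF-β1 its call was gone in all 8 fits that left out 1 library (adjusted p = 0.0514 to 0.196) and with DESeq2 (0.0638). Without TGF-β1 it lost its call without any 1 of the 4 control libraries (0.115 to 0.182). The list's count of 5 without TGF-β1 was 2 without untreated shMTHFD2 library 2, untreated shMock library 1 or untreated shMock library 2, and 3 without untreated shMTHFD2 library 1 or with library totals alone.

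The products made after sensing were mostly too scarce to test. Of 12 interferons and chemokines, 4 passed the filter. All 4 fell with TGF-β1 (median -1.60), where 8.23% of all genes were called lower. Without it 3 fell (median -1.50), where 8.19% of all genes were called lower. The chemokine CXCL10 was at -1.88 with TGF-β1 (edgeR adjusted p = 4.9e-05) and -2.04 without it (edgeR adjusted p = 1.72e-05). CXCL11 was at -2.02 with TGF-β1 (edgeR adjusted p = 0.0133), a call lost without treated shMTHFD2 library 2 (-1.63) or treated shMock library 2 (-1.65). With TGF-β1 it had 0.766 and 0.407 CPM in shMTHFD2, under the filter's 1 CPM, against 1.86 and 2.93 CPM in shMock. Untreated, it had 12 and 15 counts in shMTHFD2, against 25 and 31 in shMock. Its being tested thus already depended on the higher shMock level. IFIT2 was at -1.72 without TGF-β1 (edgeR adjusted p = 3.29e-06). The count with TGF-β1 was 2 without treated shMTHFD2 library 2 or treated shMock library 2, and 2 with DESeq2. IFNB1, the interferon made first after sensing, had 6 and 2 counts in shMTHFD2 with TGF-β1, against 7 and 22 counts in shMock with TGF-β1. In untreated cells it had 6 and 15 counts in shMTHFD2, against 33 and 31 counts in shMock. The shMTHFD2 libraries were lower in both conditions, and a fit without the filter on low counts did not call either difference (edgeR adjusted p = 0.101 with TGF-β1 and 0.198 without it). With TGF-β1, IFNE had 0 and 13 counts in shMTHFD2 against 6 and 6 in shMock, and IFNL1 had 0 and 5 against 3 and 1. Neither was thus lower in both shMTHFD2 libraries there. Untreated, IFNE had 3 and 0 counts in shMTHFD2 against 13 and 8 in shMock, and IFNL1 had 0 and 0 against 16 and 6. IFNL2 had 8 counts in treated shMock library 2 and none elsewhere. IFNA1, IFNK and IFNL3 had no counts in any library.

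The same lists were read for TGF-β1 against control, where 11% of all genes were called lower and 12.8% higher in shMTHFD2, and 18.1% lower and 17.3% higher in shMock. In shMTHFD2, 4 of the 15 other sensors fell, 3 of the 19 adaptors, kinases and factors fell, and of the 16 activators 1 fell and 3 rose. There, 1 of the 11 inhibitors rose, 1 of the 10 clearance genes fell and none of the 4 interferons and chemokines was called. In shMock, 4 of the other sensors fell and 1 rose, 8 of the adaptors, kinases and factors fell and 1 rose, and of the activators 3 fell and 6 rose. There, 2 of the inhibitors fell and 3 rose, 3 of the clearance genes fell, and 2 of the interferons and chemokines fell. In shMTHFD2 the calls of other sensors were 1 without treated shMTHFD2 library 1, those of adaptors 1 without treated shMTHFD2 library 2, untreated shMTHFD2 library 1 or untreated shMTHFD2 library 2, those of inhibitors 0 without untreated shMTHFD2 library 2, and those of clearance genes 0 without treated shMTHFD2 library 1 or untreated shMTHFD2 library 1. The interferons and chemokines had 1 call there without treated shMTHFD2 library 2 or untreated shMTHFD2 library 1. In shMock the calls of other sensors were 3 without treated shMock library 1, and those of inhibitors 1 without treated shMock library 1, 3 without untreated shMock library 1 and 2 without untreated shMock library 2. With library totals alone the calls of other sensors were 7 in shMTHFD2, and those of clearance genes 3 in shMTHFD2 and 6 in shMock, all lower. With no filter the calls of other sensors in shMock were 9, and fitted on the compared libraries alone they were 8. The interaction test called no gene of the 6 lists. Without untreated shMTHFD2 library 1, and likewise with no filter, it called 2 adaptors, 1 clearance gene and 1 of the interferons and chemokines. Exons of OAS1, AZI2, IRF3, TRIM25, TAX1BP1, TNFAIP3, SAMHD1, RNASEH2C and IFIT2 overlap a gene on the opposite strand, and those of TRIM25 and IFIT2 also one on their own strand, so their counts may hold reads of those neighbours.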

How the data were processed

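RNA was measured by bulk RNA sequencing. STAR 2.7.1a, DESeq2 1.32.0 and GRCh38 are listed, without roles, per the submitters' processing notes. The counter, the annotation and the use of strand are not given in these sources. The data table the authors deposited, although named for FPKM, holds whole-number counts per Ensembl gene, with 1 column per library. Symbols matched 60437 of 60666 IDs, and positions, exon lengths and overlaps came from GENCODE release 29.

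The filter kept genes whose mean over the 8 libraries reached 1 CPM. They were fitted with edgeR 4.0.16 (quasi-likelihood, TMM factors of 0.914 to 1.07, a mean per group, 4 residual degrees of freedom) in R 4.3.3, and p-values were adjusted by Benjamini-Hochberg over the 13493 genes tested, with a threshold of 0.05. Positive values are higher in the group named first. CPM values use TMM-scaled library sizes. Standard errors were derived from the F statistic. The common biological coefficient of variation was 8.79%, and chi-square per degree of freedom between replicates was 6.47 to 11.2. The floor of 3 counts covers counting error only.

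Alternatives were other scalings and filters, DESeq2 1.42.0, fits on the compared groups, a replicate term, leaving out each library, and, chosen after seeing the data, GC and length offsets. The members and lists were chosen with earlier results of these data known. All members were named, and from each list up to 2 higher and 2 lower genes past the threshold with the largest fold changes in the knockdown comparisons. The 5 genes most like RIGI and CGAS were taken by Pearson correlation, and some of those for CGAS are not reported here. The fit was tested on simulated data.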

Additional observations from a re-analysis of the deposited data

How the results depend on the processing

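Depth limits TLR3, CGAS and IFNB1, and 2 libraries a group leave calls near the threshold to single libraries. Of the alternatives to the members' values in the 5 comparisons, 759 kept the direction and the side of the threshold, 20 lost a call, 9 gained one and 49 turned a sign, every turned value being uncalled in both settings. RIGI, IFIH1 and STING1 kept both knockdown calls in all 17 alternatives each. With TGF-β1, 3 members were called with library totals alone. Leaving out 1 library gave 3 to 5 members with TGF-β1, 3 to 5 without it, 1 to 2 for TGF-β1 in shMTHFD2, 2 to 2 in shMock and 0 to 0 for the interaction.

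Deviations of same-numbered libraries correlated at -0.0203 to 0.0687 between groups, so no strong effect shared by replicate number was seen. That cannot show that the samples were unpaired, and the labels do not say. A replicate block gave 5, 4, 2, 2 and 0 members called, as without it.

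Signs turned under scaling, each adjusted p there being at least 0.278, and the cause was not tested beyond the shift of the median. For TGF-β1 in shMock, library totals alone gave RIGI -0.06, IFIH1 -0.11, MAVS -0.10, TBK1 -0.08 and ADAR -0.08, upper-quartile factors gave IFIH1 -0.03, MAVS -0.02 and ADAR -0.003, and GC and length offsets gave RIGI -0.07, IFIH1 -0.08, MAVS -0.07, TBK1 -0.07 and ADAR -0.02. For TGF-β1 in shMTHFD2, library totals gave RIGI -0.08, TLR3 -0.10, TBK1 -0.08 and ADAR -0.09, upper-quartile factors gave RIGI -0.03, TLR3 -0.05, TBK1 -0.03 and ADAR -0.04, and the offsets gave ADAR -0.01. In the interaction the offsets gave RIGI 0.11, IFI16 0.07, TBK1 0.12 and ADAR 0.01, and in the knockdown with TGF-β1 they gave DHX58 -0.08.

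Leaving out 1 library, the following ranges crossed 0. In the knockdown with TGF-β1 they were CGAS -0.15 to 0.37, DHX58 -0.08 to 0.19 and TBK1 -0.05 to 0.07, and without it TBK1 -0.02 to 0.10. For TGF-β1 in shMTHFD2 they were ADAR -0.01 to 0.06, RIGI -0.04 to 0.10, TBK1 -0.03 to 0.09 and TLR3 -0.15 to 0.17, and in shMock IFIH1 -0.01 to 0.06 and MAVS -0.12 to 0.21. In the interaction they were ADAR -0.07 to 0.01, IFI16 -0.20 to 0.02, MAVS -0.29 to 0.05, RIGI -0.11 to 0.01 and TBK1 -0.09 to 0.03.

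Over all genes the knockdown with TGF-β1 called 1762, and 845 without treated shMTHFD2 library 1, 999 without treated shMTHFD2 library 2 and 856 without treated shMock library 1. The knockdown without TGF-β1 called 1543, and 638 without untreated shMTHFD2 library 2, 962 without untreated shMock library 1 and 654 without untreated shMock library 2. The interaction called 12, and 321 with no filter, 105 with DESeq2, 20 with the offsets and 3 to 185 leaving out 1 library (185 without untreated shMTHFD2 library 1, 42 without untreated shMock library 1, 4 without untreated shMock library 2, and 3 without untreated shMTHFD2 library 2 or treated shMock library 1).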

Other observations

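Among tested genes with a promoter window, 15.6% of the 730 that held a GAAA repeat of either spacing fell in shMTHFD2 with TGF-β1, against 8.18% of the 9575 that held neither. Without TGF-β1 the shares were 15.9% of those that held it, against 7.87% of those that held neither. The share that rose was 5.48% of the genes that held a repeat, against 5.09% of those that held neither, with TGF-β1. Without the cytokine it was 4.25% against 3.29%. With TGF-β1 against control in shMTHFD2, 14.5% of the genes that held a repeat fell and 14.1% rose, against 10.6% and 13.4% of those that held neither. In shMock 21.9% fell and 19.9% rose, against 18.2% and 18.2%. Of the 7 members with a window, those with a match, RIGI, IFIH1, TLR3 and IFI16, were each called in at least 1 knockdown comparison. TLR3 was tested only because its shMock levels carried it past the filter, so its call is not separate from that higher level. Of the 3 without a match, ADAR was called and MAVS and TBK1 were not. How many of all genes, or of those with a repeat, were called in at least 1 was not computed, so these member calls have no background. The TLR3, IFI16 and ADAR calls were lost when single libraries were left out, and the members were chosen with earlier results known. The shares above were not tested, since genes are not replicates, and the letters matched are not known to be bound in these cells.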
